A study of Mus musculus with 8 samples.

Results

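The heat shock proteins and chaperones are the proteins that fold, refold and hold other proteins. Their genes were picked by symbol, as those named Hsp, Dnaja, Dnajb or Dnajc, the subunits *Cct2* to *Cct8* and *Bag1* to *Bag6*, without pseudogenes. Of 89 annotated genes that met this rule, 80 were among the 20172 genes of the table. Of these, 73 had a mean of at least 10 normalized counts over the 8 libraries and so were among the 13990 genes tested. The other 9 (Dnajb3, Dnajb7, Dnajb8, Dnajc22, Dnajc5b, Hspa14, Hspa1l, Hspb3 and Hspb8) were not analysed here.

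The cells were regulatory T cells (Tregs), the CD4 T cells that restrain other immune cells and depend on the transcription factor *Foxp3*. All mice carried *Foxp3* YFP-cre (*Foxp3* CreYFP), in which a yellow fluorescent protein (YFP) joined to Cre recombinase is made from the *Foxp3* locus, so that YFP marks Tregs. They were young adults with no treatment named in the labels. The design text describes them as female, whereas the methods of the study name mice of both sexes. CD4 T cells were enriched from the spleen, and live YFP+ cells were sorted by surface TNFR2, the second receptor for tumor necrosis factor, into TNFR2+ and TNFR2- Tregs, with 4 RNA sequencing libraries of each. The methods describe sorting at low pressure and speed on one instrument, to limit stress, and at higher pressure and speed on another in some experiments, and which one made these libraries was not given in the sources used here. The study's figure legend for these data names mice with n = 4. It does not say whether a library came from 1 mouse or from a pool. P-values therefore measure only the spread between these libraries, which may be technical.

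In a cell, HSP70 proteins bind exposed stretches of unfolded proteins, J proteins (DNAJ) bring the client and switch on the ATPase of HSP70, and exchange factors such as HSP110 and BAG proteins let the client go. HSP90 completes the folding of kinases and receptors, the CCT ring folds actin and tubulin, and the endoplasmic reticulum (ER) and the mitochondrion each have a set of their own. Heat shock factors raise the inducible genes through heat shock elements in their promoters, and the unfolded protein response raises the ER genes through ER stress response elements.

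Values are normalized counts, scaled between libraries but not for gene length, and a log2 difference or log2 fold change is TNFR2+ against TNFR2-. The libraries summed to 9576920 to 11492762 normalized counts, and the spacing of their low values gave estimated depths of 9100000 to 12110000 reads. *Tnfrsf1b*, which encodes TNFR2, was 1.87-fold higher in TNFR2+ Tregs (log2 fold change 0.90, SE 0.16, adjusted p = 0.00449, limma), and all 9 T cell and Treg markers were measured. TNFR2- replicate 3 stood apart on the second principal component (91.3, against -39.1 to 18.0 for the other libraries). Over all genes tested, 1107 (7.91%) had an adjusted p under 0.05, 633 (4.52%) higher and 474 (3.39%) lower in TNFR2+ Tregs. With every library scaled to the same sum, the median of all genes moved from -0.01 to 0.12 on the log2 scale and the split became 896 higher and 308 lower.

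Chaperone genes took 0.960% to 1.08% of the normalized counts of a TNFR2+ library and 0.869% to 0.919% of a TNFR2- library, so the groups did not overlap on this share. In bulk RNA, fewer cells of a type and less RNA per cell cannot be told apart, here and in what follows. Their summed normalized counts did overlap, from 96898 to 110752 in TNFR2+ and from 95329 to 103610.0 in TNFR2- libraries. The difference in share therefore came with larger library sums in TNFR2- Tregs. *Hsp90aa1*, *Hsp90ab1*, *Hspa5* and *Hspa8* together held 53.4% to 56.3% of the chaperone counts of a library.

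Per kilobase of transcript, the highest chaperone was *Hsp90ab1*, the constitutive cytosolic HSP90, at 8402 normalized counts per kilobase in TNFR2+ and 7628 in TNFR2- Tregs. *Hspa8*, the constitutive HSP70 of the cytosol, followed with 6623 and 6281, and *Hspa5* (BiP, the HSP70 of the ER) with 2748 and 3092. *Hsp90aa1*, the inducible cytosolic HSP90, lay close to *Hspa5* at 2572 and 2703. *Hsp90b1* (GRP94, the HSP90 of the ER) came next by the mean over all 8 libraries, at 1354 and 859. Within a group, the ranges of *Hsp90ab1* and *Hspa8* overlapped only in TNFR2- Tregs, whereas those of *Hspa5* and *Hsp90aa1* overlapped in both groups. Below *Hsp90b1* by that mean came *Cct2*, *Dnajc8*, *Cct5*, *Bag1*, *Hspe1*, *Hspa9* and *Dnajb6*, with group means between 492 and 980 per kilobase. Neighbours in that order overlapped between libraries, except *Cct5* and *Bag1*, which did not overlap in either group. In TNFR2- Tregs alone, *Cct5* (886), *Cct2* (885) and *Dnajc8* (868) had means above that of *Hsp90b1* (859).

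**Figure D1:**
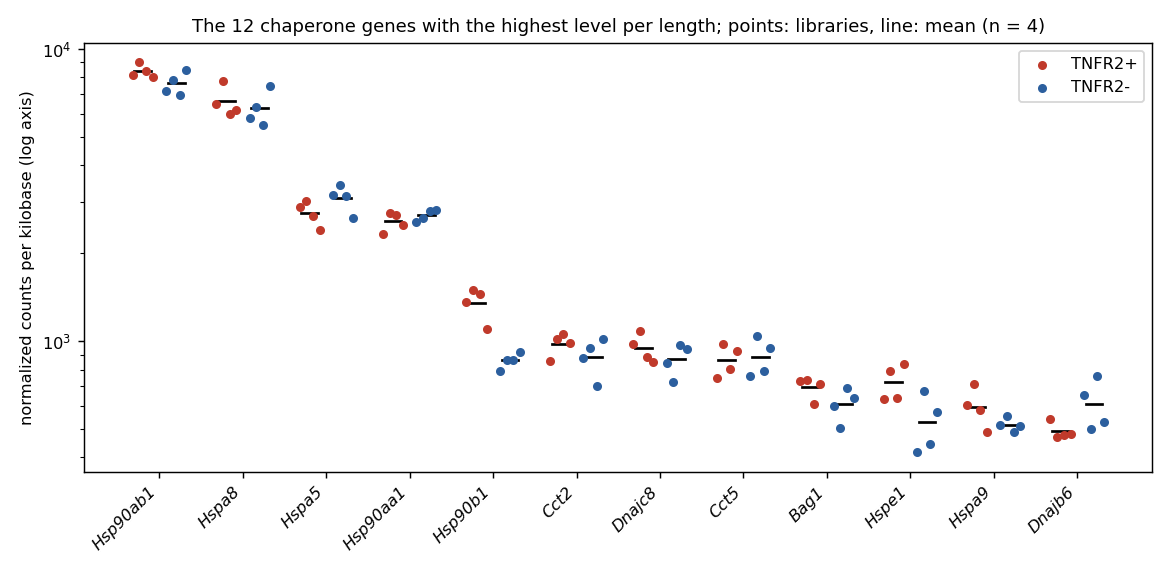
Normalized counts per kilobase of transcript (log axis) of the 12 chaperone genes with the highest level, with 1 point per library (red, TNFR2+; blue, TNFR2-) and a line at the mean of 4 libraries. Hsp90ab1 and Hspa8 lie above the other 10 genes in every library, and Hsp90b1 is the one of these 12 genes that differed with an adjusted p under 0.05.

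Of the 73 tested chaperone genes, 4 (5.48%) passed the adjusted threshold, against 7.91% of all genes. *Bag3*, *Hsp90b1* and *Hspd1* were higher in TNFR2+ Tregs and *Hspa1b* was lower. An unadjusted p under 0.05 was reached by 20 genes, 14 higher and 6 lower, where it was reached by 23.0% of all genes (12.3% higher and 10.7% lower). The groups did not overlap for 15 genes, 11 higher and 4 lower, where 15.4% of all genes did not overlap (8.08% higher and 7.29% lower). The median log2 fold change was 0.08, against -0.01 over all genes tested, with 40 positive and 33 negative values. The share called was below that over all genes, and the 4 genes belonged to the inducible, ER and mitochondrial lists. Without TNFR2- replicate 3 the same 4 genes were called, against 9.3% of all genes, and without an intensity trend in the variances 1 was (*Bag3*), against 3.32%.

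**Figure D2:**
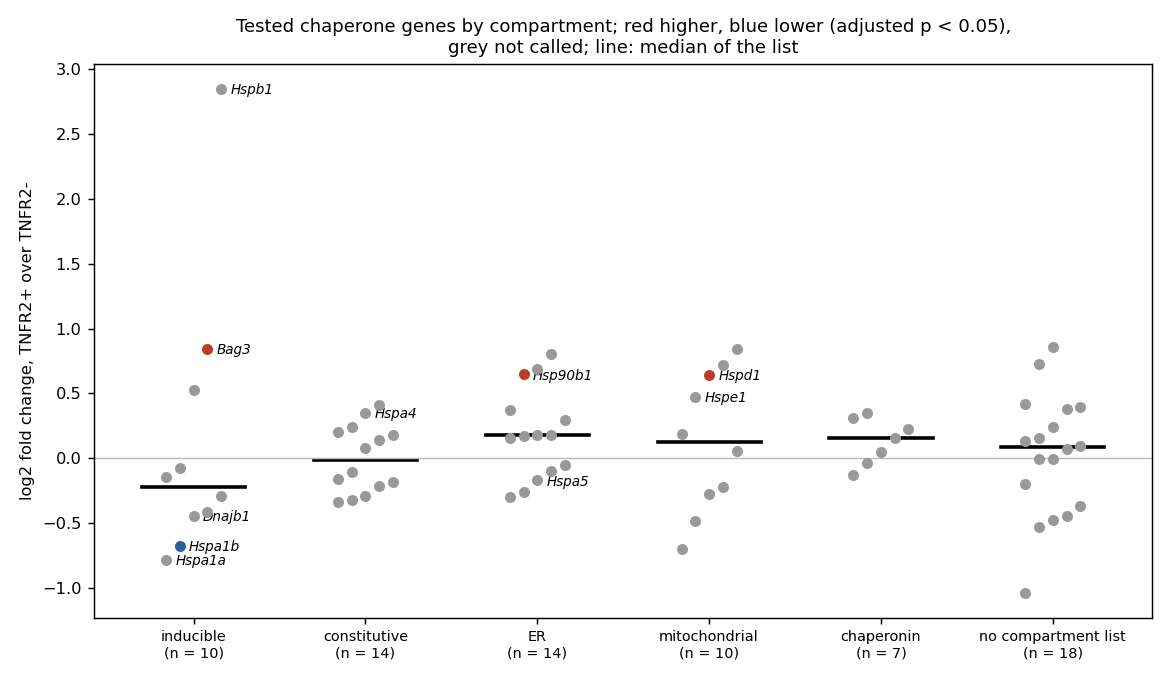
Log2 fold change (TNFR2+ over TNFR2-, on log2 of normalized count + 1) of the 73 tested chaperone genes, arranged by compartment list, with the list's median as a line. Bag3, Hsp90b1 and Hspd1 (red) and Hspa1b (blue) had an adjusted p under 0.05, and the inducible list has the lowest median (-0.22).

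The inducible list held 10 genes that heat or protein damage can raise in the cytosol. Of these, 1 was called in each direction, where 4.52% of all genes were called higher and 3.39% lower. By sign, 7 had a negative and 3 a positive log2 fold change, with a median of -0.22. With every library scaled to the same sum the median was -0.09, where the median of all genes was 0.12. The members did not move one way, since *Bag3* rose and *Hspa1b* fell.

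*Hspa1b* and *Hspa1a* encode the stress-inducible HSP70, and their transcripts are near-identical, so reads can be split between them with error. They lie beside each other on the minus strand (*Hspa1b* at chr17:34956436-34959238 and *Hspa1a* at chr17:34969190-34972156, GRCm38), 9951 bases apart. Normalized counts of *Hspa1b* were 485, 426, 449.8 and 405 in TNFR2+ libraries 1 to 4 and 801, 664, 586 and 782 in TNFR2- libraries 1 to 4. Every TNFR2+ library was below every TNFR2- library, and the gene was 1.59-fold lower in TNFR2+ Tregs (log2 fold change -0.67, SE 0.16, adjusted p = 0.0215, limma). Those of *Hspa1a* were 165, 204, 104 and 224 in TNFR2+ libraries 1 to 4 and 397, 256, 202 and 340.3 in TNFR2- libraries 1 to 4. TNFR2- libraries 1, 2 and 4 were above all TNFR2+ libraries and TNFR2- library 3 was not, and the difference missed the threshold (log2 fold change -0.78, SE 0.29, adjusted p = 0.123). Summed, the pair gave 650.3, 631, 554 and 629 in TNFR2+ and 1199, 919.9, 788 and 1123 in TNFR2- libraries, with no overlap. The sum was 616 ± 42.5 against 1007 ± 188 (SD, n = 4), a log2 fold change of -0.69 (SE 0.16, adjusted p = 0.0189, limma). It does not depend on how reads were split within the pair. A further near-identical copy, *Gm20481*, was not among the genes of the table, so any reads given to it are not in the sum. The sum was fitted with the main settings only. *Hspa1b* alone missed the threshold with every library scaled to the same sum (log2 fold change -0.54, adjusted p = 0.0590), and without an intensity trend in the variances (adjusted p = 0.0676). Leaving out a library gave -0.76 to -0.61 and adjusted p of 0.0122 to 0.0654, over the threshold without TNFR2+ replicate 2 (0.0654), 3 (0.0522) or 4 (0.0556) or TNFR2- replicate 1 (0.0653) or 4 (0.0560).

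*Dnajb1*, the J protein partner of inducible HSP70, had normalized counts of 731, 615, 654 and 725 in TNFR2+ libraries 1 to 4 and 831, 897, 914 and 1076 in TNFR2- libraries 1 to 4. The groups did not overlap and TNFR2+ Tregs were lower, but the difference missed the threshold (log2 fold change -0.44, SE 0.14, adjusted p = 0.0783). *Dnaja1*, a J protein of the cytosol, also did not overlap, with normalized counts of 2209.6 to 2402 in TNFR2+ and 2480.4 to 2687 in TNFR2- libraries, and its log2 difference was -0.15 (adjusted p = 0.427). *Dnajb4*, a related J protein, had a log2 difference of -0.41 (adjusted p = 0.201) and *Hsph1*, the inducible HSP110, had a log2 difference of -0.29 (adjusted p = 0.268), both with overlapping groups. *Hsp90aa1* differed little, with normalized counts of 7643 to 9043 in TNFR2+ and 8386 to 9249 in TNFR2- libraries, and its log2 difference was -0.07 (adjusted p = 0.692), which became 0.12 after quantile normalization and 0.06 with every library scaled to the same sum.

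*Bag3*, the co-chaperone that links HSP70 and small HSPs to autophagy of damaged proteins, went the other way. Its normalized counts were 795, 847, 777 and 732 in TNFR2+ libraries 1 to 4 and 492, 386, 492 and 392 in TNFR2- libraries 1 to 4. The lowest TNFR2+ library was above the highest TNFR2- library, and *Bag3* was 1.80-fold higher in TNFR2+ Tregs (log2 fold change 0.84, SE 0.16, adjusted p = 0.00493, limma). The call held in each of the 8 fits that left out a library, with log2 fold changes of 0.78 to 0.90, and in all 11 other settings. *Bag3* lies at chr7:128523616-128546981 on the plus strand (GRCm38), and no near-identical transcript was found. *Hspa4l*, an HSP110, also did not overlap, with normalized counts of 291 to 416 in TNFR2+ and 203 to 276 in TNFR2- libraries, and its log2 difference was 0.53 (adjusted p = 0.152). *Hspb1* (HSP25), the small HSP of the list, was low and uneven. It had normalized counts of 34.3, 6.88, 38.7 and 2.90 in TNFR2+ libraries 1 to 4 and 2.00, 4.32, 0 and 0 in TNFR2- libraries 1 to 4, so TNFR2+ libraries 1 and 3 stood out while the groups overlapped (log2 fold change 2.85, SE 1.19, adjusted p = 0.170). It has near-identical copies, *Gm9817* and *Hsp25-ps1*, so its reads could have been split. Together the copies had means of 17.3 normalized counts in TNFR2+ and 19.0 in TNFR2- Tregs. With them added, the log2 ratio of the means went from 3.71 to 0.89.

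The ratio of *Bag3* to *Hspa1b* within a library does not depend on scaling between libraries. It was 1.64, 1.99, 1.73 and 1.81 in TNFR2+ libraries 1 to 4 and 0.614, 0.581, 0.840 and 0.501 in TNFR2- libraries 1 to 4, which did not overlap, with means of 1.79 ± 0.149 and 0.634 ± 0.145 (SD, n = 4). The ratio of *Bag3* to *Dnajb1* ran 1.01 to 1.38 in TNFR2+ and 0.364 to 0.592 in TNFR2- libraries. These ratios, like those given further on, were chosen after the values were seen and were not tested.

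**Figure D3:**
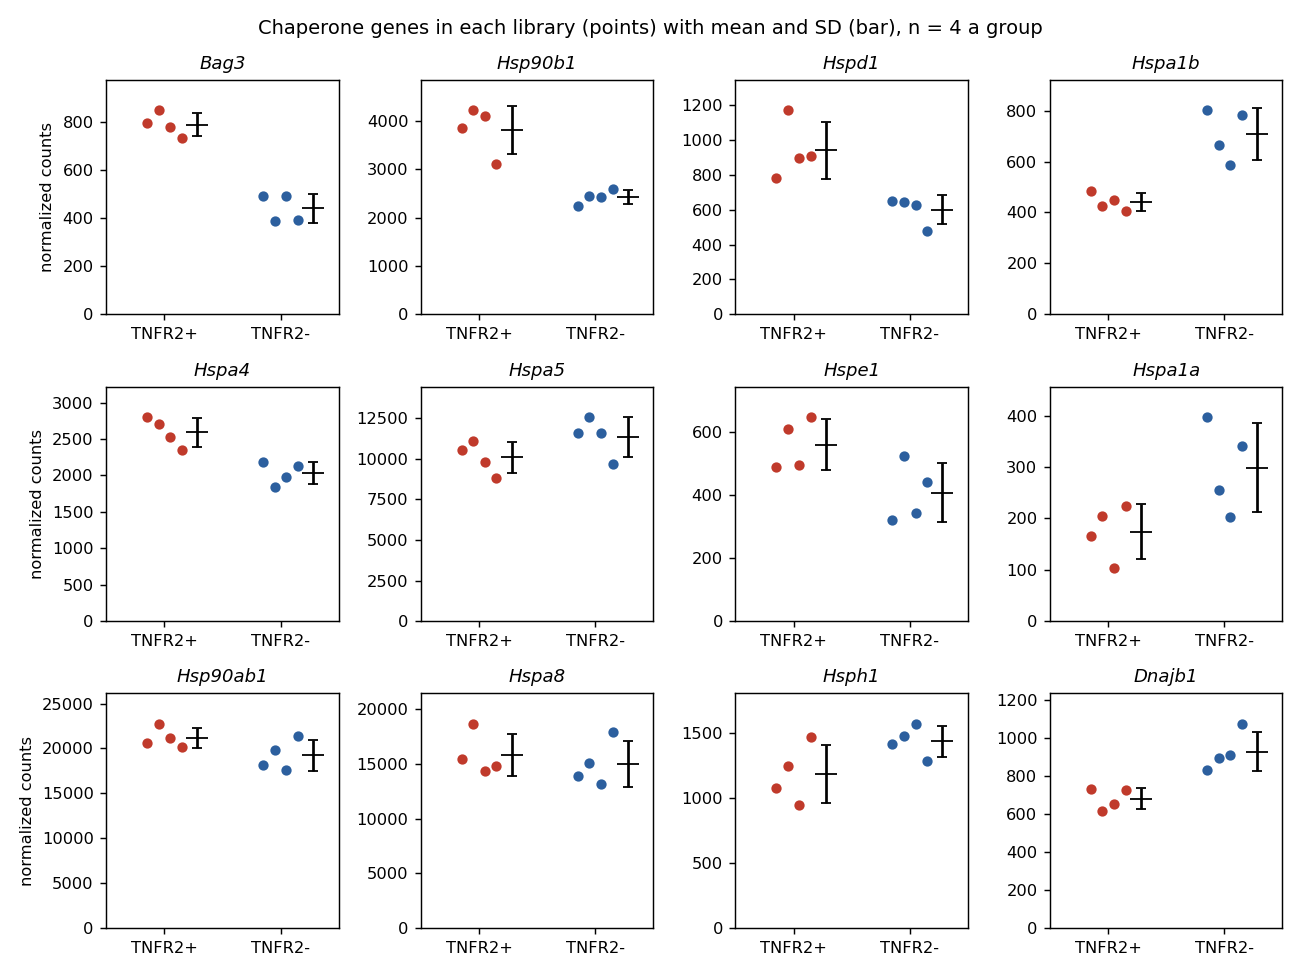
Normalized counts of 12 chaperone genes in each of 4 TNFR2+ (red) and 4 TNFR2- (blue) libraries, with the mean and SD as a bar beside the points and every axis starting at 0. Bag3, Hsp90b1, Hspd1 and Hspa4 lie higher in every TNFR2+ library, Hspa1b and Dnajb1 lie lower, and the other 6 genes overlap.

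Heat shock elements are inverted repeats of GAA. Promoters were searched on both strands, over the 250 bases before the start of transcription in RefSeq (GRCm38.p6), for the letters GAANNTTCNNGAA with at most 1 mismatch in the 9 fixed letters. The window was at hand for 66 of the 80 genes. A match was found in 16 of the 66 (24.2%) and in 6.86% of all 27025 genes with such a window. Of the inducible list 6 of 9 had one. The elements of 5 inducible genes are shown because these genes differ in direction or size of change. Capitals mark letters that match the motif, and overlapping matches are joined.
Hspa1a: GAAacTgCtgGAAgaTTC
Hspa1b: GAAacTgCtgGAAgaTTC
Hsph1: TTCtcGAAggcTCgaGAA
Dnaja1: cTCtaGAAaaTTC
Hspb1: GAAgtTTCcaGAt
They lie at chr17:34972253-34972270, minus strand (*Hspa1a*), chr17:34959335-34959352, minus strand (*Hspa1b*), chr5:149636352-149636369, minus strand (*Hsph1*), chr4:40722339-40722351, plus strand (*Dnaja1*) and chr5:135887802-135887814, plus strand (*Hspb1*). *Hspa1a* and *Hspa1b* carried the same element at the same distance from the start, and their windows were identical at 247 of 250 bases (98.8%). The window of *Hspa1b* (chr17:34959239-34959488, minus strand) and that of *Bag3* (chr7:128523333-128523582, plus strand) are shown whole, since these genes moved in opposite directions. The *Bag3* window held no match, which says only that these letters are not in it.
Hspa1b: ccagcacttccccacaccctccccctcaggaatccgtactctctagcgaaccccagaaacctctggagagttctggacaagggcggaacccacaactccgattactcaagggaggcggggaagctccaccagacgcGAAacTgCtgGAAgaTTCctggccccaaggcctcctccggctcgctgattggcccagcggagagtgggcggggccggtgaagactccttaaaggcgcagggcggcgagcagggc
Bag3: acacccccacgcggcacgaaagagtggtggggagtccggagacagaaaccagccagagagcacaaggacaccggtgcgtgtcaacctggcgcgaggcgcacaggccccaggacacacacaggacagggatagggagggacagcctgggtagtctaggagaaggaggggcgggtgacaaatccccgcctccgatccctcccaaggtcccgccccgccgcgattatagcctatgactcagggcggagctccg
Genes with a match had values of both signs. Of 15 tested genes with a match, 6 had a positive and 9 a negative log2 fold change (median -0.03), with 1 called each way. Of 45 tested genes with a window and no match, 25 were positive and 20 negative (median 0.15), with 2 called higher. Over all genes tested, 4.52% were called higher and 3.39% lower.

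Of the heat shock factors and HSP90 partners, none of 22 tested genes passed the threshold, which 7.91% of all genes passed. An unadjusted p under 0.05 was reached by 5, and by 23.0% of all genes, and the median log2 fold change was 0.26. With every library scaled to the same sum, 2 of the 22 and 896 of all genes tested were called higher. The median of the list was then 0.39. *Hsf1*, the main heat shock factor, had normalized counts of 326 to 397 in TNFR2+ and 319 to 571 in TNFR2- libraries and a log2 difference of -0.32 (adjusted p = 0.403). *Hsf2* had normalized counts of 172 to 256 in TNFR2+ and 97.0 to 163 in TNFR2- libraries, which did not overlap, with a log2 difference of 0.85 (adjusted p = 0.0633). Both values missed the threshold in this limma fit.

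Immediate-early and early stress-response genes, which T cells also raise after handling and on receptor stimulation, were mostly lower in TNFR2+ Tregs, as *Hspa1b* was. Of 13 such genes tested, 8 were lower in TNFR2+ Tregs (*Fos*, *Jun*, *Egr1*, *Ier2*, *Nr4a1*, *Btg2*, *Zfp36* and *Ppp1r15a*) and none was higher, with a median log2 fold change of -0.52, where 3.39% of all genes were called lower. By sign, 11 of the 13 were negative and 2 positive, with values up to 0.37. With every library scaled to the same sum, 5 were called lower and 1 higher, and the median was -0.39. After quantile normalization, 6 were called lower and 1 higher. *Egr1*, for example, had normalized counts of 1086, 1043, 920.0 and 1126 in TNFR2+ libraries 1 to 4 and 2186, 1910.1, 2705 and 2283 in TNFR2- libraries 1 to 4 (log2 fold change -1.11, SE 0.14, adjusted p = 0.000494). *Ppp1r15a* (GADD34), which restarts translation after stress, had normalized counts of 10483 to 12856 in TNFR2+ and 17444 to 20453 in TNFR2- libraries (log2 fold change -0.71, SE 0.10, adjusted p = 0.000975). *Atf3*, also a stress gene, had overlapping groups and a log2 difference of 0.04 (adjusted p = 0.944). The mean level of the list on the log2 scale was 11.72 to 11.95 in TNFR2+ and 12.28 to 12.45 in TNFR2- libraries, so these levels separated the groups as *Hspa1b* did. Inside each group the order was the opposite, and a higher mean of the list came with a lower sum of *Hspa1a* and *Hspa1b*. In TNFR2+ libraries 1, 2, 4 and 3 the means were 11.72, 11.81, 11.88 and 11.95. The sums were 650.3, 631, 629 and 554. In TNFR2- libraries 1, 4, 2 and 3 the means were 12.28, 12.30, 12.33 and 12.45. The sums were 1199, 1123, 919.9 and 788. The part of the immediate-early genes in the difference of *Hspa1b* was not tested.

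**Figure D4:**
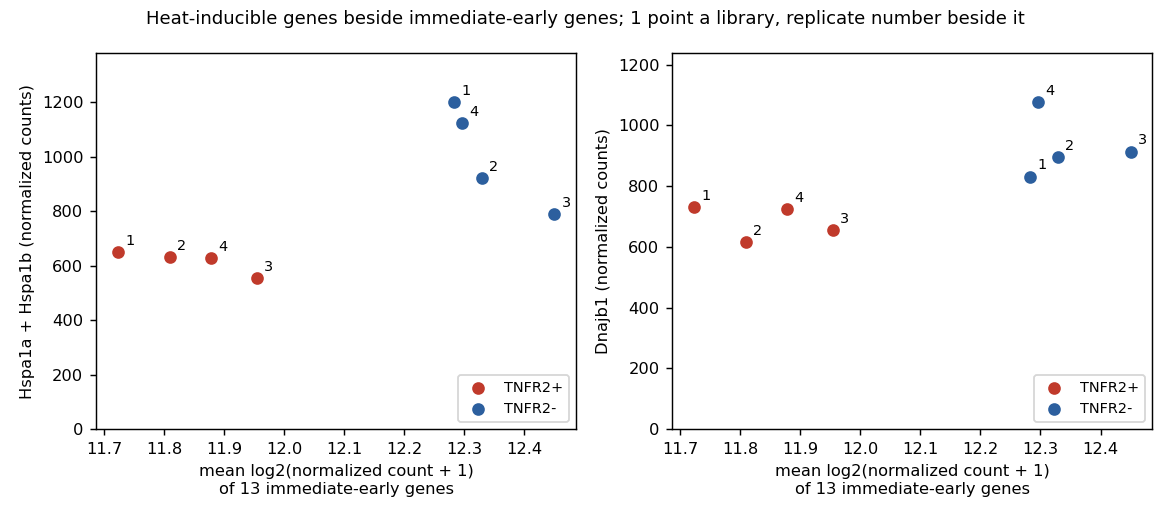
Summed normalized counts of Hspa1a and Hspa1b (left) and of Dnajb1 (right) against the mean log2(normalized count + 1) of 13 immediate-early genes, with 1 point per library and the replicate number beside it. The TNFR2- libraries (blue) lie higher on both axes than the TNFR2+ libraries (red), and in both groups library 3 has the highest immediate-early level and the lowest Hspa1a and Hspa1b sum.

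Among 14 constitutive chaperones and co-chaperones of the cytosol, none passed the threshold, which 7.91% of all genes passed. By sign, 7 were positive and 7 negative, with a median of -0.01 (0.12 with every library scaled to the same sum, and -0.105 to 0.099 when single libraries were left out). *Hspa4* (APG-2), an HSP110 that acts as exchange factor of HSP70, had normalized counts of 2800.3, 2702, 2532 and 2345 in TNFR2+ libraries 1 to 4 and 2178, 1846, 1976 and 2128 in TNFR2- libraries 1 to 4. All TNFR2+ libraries were above all TNFR2- libraries, with a difference that missed the threshold (log2 fold change 0.35, SE 0.11, adjusted p = 0.0765). It passed the threshold after quantile normalization (adjusted p = 0.0189) and with every library scaled to the same sum (adjusted p = 0.0257). *Hspa8* (normalized counts of 14396 to 18677 in TNFR2+ and 13165 to 17965 in TNFR2- libraries) and *Hsp90ab1* (normalized counts of 20153 to 22728 in TNFR2+ and 17608 to 21365 in TNFR2- libraries) overlapped, with log2 differences of 0.08 (adjusted p = 0.743) and 0.14 (adjusted p = 0.387), and *Hsp90ab1* passed the threshold after quantile normalization (0.35, adjusted p = 0.0128). Within a library, *Hsp90aa1* over *Hsp90ab1* ran 0.371 to 0.419 in TNFR2+ and 0.433 to 0.520 in TNFR2- libraries, so the ratio was lower in each TNFR2+ library. Among the BAG proteins beside *Bag3*, *Bag1*, an exchange factor of HSP70, had a log2 difference of 0.20 (adjusted p = 0.456). *Bag6*, which guards membrane proteins before insertion, had a log2 difference of -0.34 (adjusted p = 0.213), and *Bag2* was at 28.9 normalized counts or fewer in every library.

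The ER list held 14 tested genes, 9 with a positive and 5 with a negative log2 fold change (median 0.18, 0.11 without TNFR2- replicate 4 and 0.31 with every library scaled to the same sum), and 1 was called. That was 7.14% of the list, near the 7.91% called over all genes. *Hsp90b1* folds receptors that pass through the ER, among them integrins and Toll-like receptors, and keeps latent TGF-beta on Tregs through GARP. Its normalized counts were 3850.2, 4226, 4112 and 3117 in TNFR2+ libraries 1 to 4 and 2238, 2444, 2437 and 2593 in TNFR2- libraries 1 to 4. The lowest TNFR2+ library was above the highest TNFR2- library, and *Hsp90b1* was 1.57-fold higher in TNFR2+ Tregs (log2 fold change 0.65, SE 0.12, adjusted p = 0.00511, limma). The call held in each of the 8 fits that left out a library (log2 fold change 0.60 to 0.74) and was lost without an intensity trend in the variances (adjusted p = 0.0676). The gene lies at chr10:86690209-86705509 on the minus strand (GRCm38).

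*Hspa5*, the usual companion of *Hsp90b1* among targets of the unfolded protein response, did not rise, and had normalized counts of 10572, 11105, 9836 and 8848 in TNFR2+ libraries 1 to 4 and 11596, 12579, 11571 and 9663 in TNFR2- libraries 1 to 4. Only TNFR2- library 4 lay below some TNFR2+ libraries, and the log2 fold change was -0.17 (SE 0.11, adjusted p = 0.388, limma), turning to 0.11 after quantile normalization. The ratio of *Hsp90b1* to *Hspa5* within a library was 0.364, 0.381, 0.418 and 0.352 in TNFR2+ libraries 1 to 4 and 0.193, 0.194, 0.211 and 0.268 in TNFR2- libraries 1 to 4. The groups did not overlap, with means of 0.379 ± 0.0287 and 0.217 ± 0.0355 (SD, n = 4).

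Of the other ER members, *Dnajb11* (ERdj3), the J protein of BiP that binds unfolded clients, had normalized counts of 527 to 568 in TNFR2+ and 405 to 495 in TNFR2- libraries and a log2 difference of 0.30 (adjusted p = 0.272). *Hspa13*, an HSP70-like protein of microsomes, had normalized counts of 187 to 353 in TNFR2+ and 143 to 170.2 in TNFR2- libraries and a log2 difference of 0.69 (adjusted p = 0.104). *Dnajc25*, a J protein that spans a membrane, had a log2 difference of 0.80 (adjusted p = 0.167). Transcripts of 13 other genes, mostly short, were near-identical to parts of it, and 10 of them in the table had summed means of 189 normalized counts in TNFR2+ and 239 in TNFR2- Tregs, against 125 and 68.7 for *Dnajc25*. With them added, the log2 ratio of the means went from 0.87 to 0.03. *Dnajb11*, *Hspa13* and *Dnajc25* did not overlap between the groups and missed the threshold. *Dnajb9* (ERdj4), which tunes the sensor IRE1, had a log2 difference of -0.30 (adjusted p = 0.239), negative as for *Hspa5*.

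ER stress response elements were searched as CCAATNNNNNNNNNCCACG, a motif that contains a CCAAT box, on both strands of the same windows. An exact match was found in 3 of 12 ER genes with a window (*Dnajc3*, *Hsp90b1* and *Hspa5*) and in 0.13% of all genes. With at most 1 mismatch in the 10 fixed letters, 1.51% of all genes had one. *Hsp90b1* had 3 matches and *Hspa5* had 1. The elements are shown because *Hsp90b1* passed the threshold and *Hspa5* did not. Whether the number of matches bears on that was not tested. Capitals again mark the letters that match, and the last 2 elements of *Hsp90b1* match on the opposite strand.
Hspa5: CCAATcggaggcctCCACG
Dnajc3: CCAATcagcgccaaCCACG
Hsp90b1: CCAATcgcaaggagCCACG
Hsp90b1: CcTGGacagttccgATTGG
Hsp90b1: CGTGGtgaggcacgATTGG
They lie at chr2:34772025-34772043, plus strand (*Hspa5*), chr14:118937827-118937845, plus strand (*Dnajc3*), and chr10:86705638-86705656, minus strand, chr10:86705598-86705616, minus strand and chr10:86705533-86705551, minus strand (*Hsp90b1*), all in GRCm38.p6. The stretch of the *Hsp90b1* promoter that holds its 3 matches (chr10:86705510-86705694, minus strand) reads as follows.
Hsp90b1: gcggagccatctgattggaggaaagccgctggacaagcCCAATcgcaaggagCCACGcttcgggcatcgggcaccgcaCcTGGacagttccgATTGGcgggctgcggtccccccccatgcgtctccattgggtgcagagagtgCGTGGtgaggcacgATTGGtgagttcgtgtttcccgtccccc

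Other genes of ER folding and of the unfolded protein response, which are not chaperones by the rule, gave 1 call among 26 (3.85%). Over all genes tested, 7.91% were called. *Eif2ak3* (PERK), a sensor of ER stress, had normalized counts of 704, 574, 869.8 and 678 in TNFR2+ libraries 1 to 4 and 1309, 1028, 1063 and 1089 in TNFR2- libraries 1 to 4 and was 1.60-fold lower in TNFR2+ Tregs (log2 fold change -0.68, SE 0.16, adjusted p = 0.0189, limma). Its adjusted p reached 0.067 when single libraries were left out, and it was not called with every library scaled to the same sum. By sign 20 of 26 were positive, with a median of 0.28. With every library scaled to the same sum, 2 of the 26 were called higher and the median was 0.41. After quantile normalization, 1 was called higher and 1 lower. *Pdia4*, a disulfide isomerase, had a log2 difference of 0.50 (adjusted p = 0.0793) and *Xbp1*, a transcription factor of the response, a log2 difference of 0.00 (adjusted p = 0.990).

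Plasma cells and B cells are rich in ER chaperones. Of their tested markers, 1 of 5 and 1 of 5 were called higher in TNFR2+ Tregs, where 4.52% of all genes were. By sign, 3 of 5 plasma cell and 4 of 5 B cell markers were positive, with median log2 fold changes of 0.30 and 0.94. Single values ran from -0.81 to 3.54 and from -0.43 to 1.72. The groups did not overlap, with TNFR2+ higher, for 1 of 5 and 2 of 5, as for 8.08% of all genes. Of 15 plasma cell markers 10 were in the table, and they summed to 351 to 563 per 1000000 normalized counts in TNFR2+ and 144 to 261 in TNFR2- libraries. This sum was mostly *Ighm* (normalized counts of 3433 to 5576 in TNFR2+ and 1583 to 2404 in TNFR2- libraries). Of the defining markers, *Jchain* had 0 to 37.0 normalized counts in TNFR2+ and 2.74 to 52.9 in TNFR2- libraries, and *Sdc1* had 0 to 16.7 and 0 to 1.51. Of 13 B cell markers 11 were in the table, and they summed to 131 to 141 and 33.5 to 83.4 per 1000000. *Cd74*, which activated T cells can also express, rose (log2 fold change 1.72, SE 0.24, adjusted p = 0.000912), and *Cd79a* stayed at 6.10 or fewer normalized counts in every library. Myeloid markers (7 of 14) summed to 85.9 to 127 and 31.8 to 56.0 per 1000000. Of 5 tested myeloid markers, 2 were positive and 3 negative (median -0.22), and 1 was called higher, where 4.52% of all genes were. Cytotoxic cell markers (7 of 10) summed to 13.8 to 21.0 and 9.99 to 15.1 per 1000000. Of 4 tested cytotoxic cell markers, 3 were positive and 1 negative, with log2 fold changes of -1.09 to 3.19. Among them 1 was called higher, where 4.52% of all genes were. Erythroid and platelet markers (2 of 10) summed to 1.21 to 23.1 and 3.95 to 17.0 per 1000000. The part of other cells in the difference of *Hsp90b1* was not tested.

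The mitochondrial list held 10 tested genes, with 6 positive and 4 negative log2 fold changes, a median of 0.12 and 1 call. The median rested on single libraries, running from -0.042 without TNFR2- replicate 1 to 0.27 without TNFR2- replicate 2. It was 0.024 without TNFR2- replicate 3, 0.055 without TNFR2+ replicate 2, 0.20 without TNFR2+ replicate 4 and 0.24 without TNFR2- replicate 4, and 0.25 with every library scaled to the same sum. *Hspd1* (HSP60) and *Hspe1* (HSP10) form the folding chamber of the matrix and its lid. Normalized counts of *Hspd1* were 784, 1169.7, 898 and 910.2 in TNFR2+ libraries 1 to 4 and 651, 645, 627 and 477 in TNFR2- libraries 1 to 4. The groups did not overlap, with TNFR2+ library 2 the highest and TNFR2- library 4 the lowest, and *Hspd1* was 1.56-fold higher in TNFR2+ Tregs (log2 fold change 0.64, SE 0.17, adjusted p = 0.0336, limma). Leaving out a library gave adjusted p of 0.0400 to 0.118, over the threshold without TNFR2+ replicate 2 (0.118), 3 (0.0739) or 4 (0.0639) or TNFR2- replicate 1 (0.0520), 2 (0.0594) or 4 (0.0790), and fitting without an intensity trend gave 0.107. *Hspe1* had normalized counts of 489, 611, 496 and 649 in TNFR2+ libraries 1 to 4 and 323, 525, 344 and 442 in TNFR2- libraries 1 to 4. TNFR2- library 2 lay among the TNFR2+ libraries, and the difference missed the threshold (log2 fold change 0.47, SE 0.20, adjusted p = 0.167).

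*Hspd1* (chr1:55077835-55088243, minus strand) and *Hspe1* (chr1:55088132-55091307, plus strand, GRCm38) lie head to head, and their annotated 5′ ends share 112 bases. Both RefSeq promoter windows held the same exact heat shock element, at chr1:55088059-55088076, plus strand as read for *Hspe1*. It lies at -89 to -72 from the RefSeq start of *Hspe1* and at -144 to -127 from that of *Hspd1*, and inside the longer *Hspd1* gene given above, which is from GENCODE. It is shown because exact matches were found in 0.514% of all genes and among these chaperones in *Hspd1*, *Hspe1* and *Dnajb6*.
Hspe1: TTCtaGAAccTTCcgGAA
The ratio of *Hspd1* to *Hspe1* within a library overlapped between the groups (1.40 to 1.92 in TNFR2+ and 1.08 to 2.02 in TNFR2- libraries).

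*Hspa9* (mortalin), the mitochondrial HSP70, had normalized counts of 1491 to 2173 in TNFR2+ and 1492 to 1689.8 in TNFR2- libraries and a log2 difference of 0.19 (adjusted p = 0.429). The ratio of *Hspd1* to *Hspa9* was 0.425, 0.538, 0.507 and 0.611 in TNFR2+ libraries 1 to 4 and 0.414, 0.382, 0.421 and 0.304 in TNFR2- libraries 1 to 4, and it did not overlap. *Dnajc19*, of the motor that imports proteins into the matrix, had normalized counts of 108 to 218 in TNFR2+ and 76.2 to 99.7 in TNFR2- libraries, without overlap, and a log2 difference of 0.85 (adjusted p = 0.102). *Dnajc4* also did not overlap (normalized counts of 83.9 to 122 in TNFR2+ and 49.6 to 63.9 in TNFR2- libraries), with a log2 difference of 0.72 (adjusted p = 0.183). Of 12 other genes of mitochondrial import and protein quality control, none passed the threshold in the limma fit, which 7.91% of all genes passed. None had an unadjusted p under 0.05, as 23.0% of all genes did, and the median was 0.14.

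**Figure D5:**
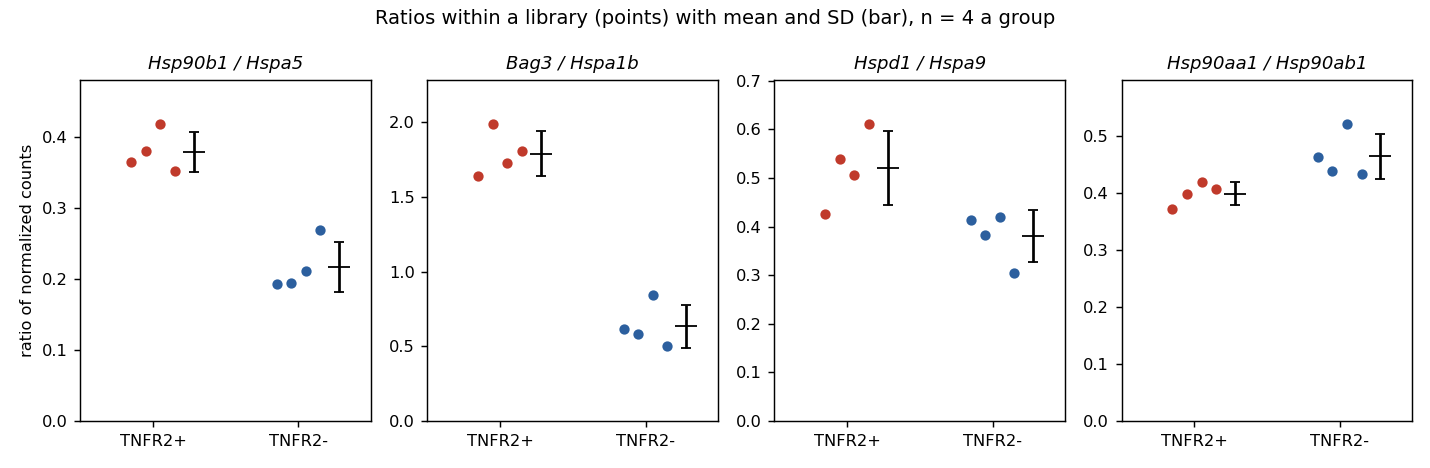
Ratio of the normalized counts of 2 chaperone genes within each library, with 1 point per library (red, TNFR2+; blue, TNFR2-) and the mean and SD of 4 libraries as a bar, on axes that start at 0. Hsp90b1 over Hspa5, Bag3 over Hspa1b and Hspd1 over Hspa9 lie higher in every TNFR2+ library, and Hsp90aa1 over Hsp90ab1 lies lower.

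The subunits of the CCT ring, which must be present together to form it, did not differ detectably. None of the 7 tested subunit genes passed the adjusted threshold in the limma fit, which 7.91% of all genes passed. None reached an unadjusted p under 0.05, as 23.0% of all genes did. All 7 overlapped between the groups, where 15.4% of all genes did not. A list of 7 genes is too short to set its shares against these. Log2 fold changes ran from -0.13 (*Cct6a*) to 0.35 (*Cct3*, adjusted p = 0.225), with a median of 0.16. Without TNFR2- replicate 3 the median was 0.049, and it was 0.26 after quantile normalization and 0.29 with every library scaled to the same sum. *Cct7* had a log2 difference of 0.31 (adjusted p = 0.242), *Cct8* a log2 difference of 0.23 (adjusted p = 0.538), *Cct2* a log2 difference of 0.16 (adjusted p = 0.548), *Cct4* a log2 difference of 0.05 (adjusted p = 0.901) and *Cct5* a log2 difference of -0.03 (adjusted p = 0.925). The sign of *Cct4*, *Cct5* and *Cct6a* turned under other scalings or library weights. *Tcp1*, the first subunit, which the symbol rule left out, had a log2 difference of 0.37 (adjusted p = 0.191). *Cct6b*, a testis form of the sixth subunit, was under the minimum for testing, with normalized counts of 5.03, 22.1, 10.6 and 10.7 in TNFR2+ libraries 1 to 4 and 3.84, 1.06, 1.18 and 0 in TNFR2- libraries 1 to 4.

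Among the partners and clients of CCT were 2 tubulins that rose. Of 14 such genes, all had a positive log2 fold change (12 of 14 after quantile normalization), with a median of 0.24. Among them 2 (14.3%) were called, where 7.91% of all genes were. *Tuba1b*, an alpha tubulin, had normalized counts of 2030.0, 2018, 1999 and 1521 in TNFR2+ libraries 1 to 4 and 703, 1202, 952 and 859 in TNFR2- libraries 1 to 4 and was 2.06-fold higher in TNFR2+ Tregs (log2 fold change 1.04, SE 0.17, adjusted p = 0.00250). *Tubb5*, a beta tubulin, had normalized counts of 4736, 5156, 4659 and 4369.8 in TNFR2+ libraries 1 to 4 and 2648, 2841, 2654 and 3926 in TNFR2- libraries 1 to 4 and was 1.59-fold higher (log2 fold change 0.67, SE 0.13, adjusted p = 0.00838). Both are also raised in dividing cells, and 9 of 15 genes of DNA replication and mitosis were called higher, where 4.52% of all genes were. Their mean level on the log2 scale was 8.59 to 9.20 in TNFR2+ and 6.93 to 7.86 in TNFR2- libraries, and *Mki67* had normalized counts of 2622 to 5041 in TNFR2+ and 295 to 837 in TNFR2- libraries. Whether more dividing cells account for the higher *Hspd1*, *Hsp90b1* or tubulins was not tested.

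By family, the values of the J proteins were mostly negative in classes A and B. All 4 DNAJA genes had a negative log2 fold change (median -0.18, 3 of 4 with every library scaled to the same sum). Of 10 DNAJB genes 7 were negative (median -0.28) under each scaling, and of 25 DNAJC genes 15 were positive (median 0.13, with 14 to 18 positive under the other scalings). No J protein passed the threshold in the limma fit, which 7.91% of all genes passed. At an unadjusted p under 0.05, 6 DNAJC genes were higher and 2 DNAJB and 1 DNAJC genes were lower. Over all genes, 12.3% reached this as higher and 10.7% as lower. Among DNAJC genes in no compartment list, *Dnajc9*, a chaperone of histones H3 and H4, had normalized counts of 419.5 to 588 in TNFR2+ and 329 to 459 in TNFR2- libraries and a log2 difference of 0.42 (adjusted p = 0.191). *Dnajc13*, which acts on endosomes, had normalized counts of 1130.4 to 1523 in TNFR2+ and 869 to 1068 in TNFR2- libraries and a log2 difference of 0.38 (adjusted p = 0.122), and *Dnajc21*, of ribosome assembly, had normalized counts of 379 to 489.8 in TNFR2+ and 530.0 to 758 in TNFR2- libraries and a log2 difference of -0.53 (adjusted p = 0.0858). The last 2 did not overlap between the groups, *Dnajc13* being higher and *Dnajc21* lower in TNFR2+ Tregs.

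The 8 tested HSP70 genes were evenly divided between positive and negative values, with a median of -0.04 that turned to 0.05 after quantile normalization and 0.08 with every library scaled to the same sum. Of small HSPs only *Hspb1* and *Hspb6* reached a mean of 10 normalized counts. The 7 genes under that minimum were *Cct6b*, *Cct8l1*, *Dnajc5g*, *Hspa12b*, *Hspb2*, *Hspb7* and *Hspb9*.

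Within a group, the spread between libraries set how small a difference could be seen. Among 57 chaperone genes with a mean of at least 100 normalized counts, the coefficient of variation had a median of 13.03% in TNFR2+ and 14.99% in TNFR2- Tregs. It ran from 2.34% to 32.9% and from 3.34% to 51.7%.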

How the data were processed

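Total RNA from sorted Tregs was made into stranded total RNA libraries. The authors trimmed reads with Trim Galore, estimated abundance with Salmon 1.3.0 on the GRCm38 transcriptome, and gave counts per gene to DESeq2 1.28 for normalization under R 4.0 (per the submitters' processing notes). The deposited values are this normalized signal per gene. In 2806 genes with a single transcript, 69.7% to 96.5% of low values lay on whole multiples of a step. The step was the one that made this share highest in each library. Chance gives 20% for a step fixed in advance, so that value is no fair comparison. Whole reads were not recovered for nearly all genes, so no count model was fitted and limma stood in for the study's Wald test.

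Identifiers were matched to GENCODE vM21 (20008 of 20172). The test ran on log2(normalized count + 1) in the 13990 genes whose mean reached 10, by limma 3.58.1 in R 4.3.3 (intensity trend, all 8 libraries, no covariate), two-sided, with Benjamini-Hochberg adjustment over all of them and a threshold of 0.05. Fold changes of low genes are understated on this scale. All fold changes are TNFR2+ over TNFR2-. The fit was tested on simulated data. Levels per kilobase used the longest coding transcript. Promoters are RefSeq windows. Near-identical copies were transcripts with at least 95% identity over at least 50% of the shorter one. Intervals for single shares were not computed, since depth is an estimate.

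Genes named are those past the threshold, fixed anchors of each family, the 2 largest changes of each compartment, genes whose groups did not overlap, and the highest per kilobase. Dnajb4, Dnajc3, Hspb6 and the immediate-early examples were named after their values were seen. The members, lists, tests and alternatives were chosen with earlier results of these data known. Alternatives were the pseudocount (0.5 or 4), the minimum mean (50 or none), other scalings, no intensity trend, library weights, protein-coding genes only, a replicate block and leaving out each library.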

Additional observations from a re-analysis of the deposited data

Results flagged for a closer look

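In 3 of 72 groups of 4 libraries examined, over the named chaperones, 1 library lay far from the other 3, and chance gives about 1 in 20 such groups. *Hspd1* was at 477 normalized counts in TNFR2- replicate 4, against 627 to 651 in the other TNFR2- libraries, and without that library its log2 fold change was 0.54 (adjusted p = 0.0790, limma). *Cct6a* was at 806 in TNFR2- replicate 4, against 1172 to 1218. *Dnajc25* was at 202 in TNFR2+ replicate 4, against 96.0 to 103.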

How the results depend on the processing

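*Bag3* kept its call in all 19 other fits, and *Hsp90b1* in all but the fit without an intensity trend. Without the trend, 465 genes and 1 chaperone (*Bag3*) were called in place of 1107 and 4. Leaving out each library in turn gave 642 to 1301 genes and 2 to 4 chaperones, and *Bag3* and *Hsp90b1* were called each time. Quantile normalization called 6 chaperones, adding *Hsp90ab1* and *Hspa4*. With every library scaled to the same sum 4 were called, with *Hspa4* in place of *Hspa1b*, and the medians of the inducible, constitutive and ER lists were -0.092, 0.117 and 0.306 (main -0.22, -0.01 and 0.18). Leaving out each library in turn gave medians of -0.27 to -0.18 for the inducible, -0.105 to 0.099 for the constitutive, 0.11 to 0.25 for the ER, -0.042 to 0.27 for the mitochondrial and 0.049 to 0.23 for the chaperonin list, so the sign turned for the constitutive and mitochondrial lists. A minimum mean of 50 raised the mitochondrial median from 0.12 to 0.47, since it removed low genes. Near 0 the sign turned for *Cct4* with library weights (-0.0036), *Cct5* after quantile normalization (0.027) and with equal sums (0.096), *Cct6a* with equal sums (0.0019), *Hsp90aa1* after quantile normalization (0.12) and with equal sums (0.056), and *Hspa5* after quantile normalization (0.11). It also turned when libraries were left out for *Bag2* (-0.61 to 0.83), *Cct4* (-0.10 to 0.12), *Cct5* (-0.103 to 0.0487) and *Hspa8* (-0.0025 to 0.17). The cause of these shifts was not tested. Same-numbered libraries did not deviate together (correlations -0.04 to 0.00054), and no library correlated best with its own number. With the replicate number as a block, 1183 genes and the same 4 chaperones were called. Depth limits *Hspb1*, *Bag2* and the genes under a mean of 10.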
